A study of Mus musculus with 48 samples.

Results

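The genes described here encode the proteasome, its alternative caps and the chaperones that assemble it. They were taken as the protein-coding genes whose symbol is Psm followed by a letter from a to g and a digit, which gave 50 of the 50600 genes listed in the count tables. The rule found 19 genes of the core (Psma and Psmb), 20 of the regulatory cap (Psmc and Psmd), 5 activators (Psme), 4 assembly chaperones of the core (Psmg), the inhibitor Psmf1 and Psmc3ip. Psmc3ip is a cofactor of meiotic recombination that carries the name of Psmc3 and is no proteasome subunit, so it was kept in the counts and given apart. Of the 50 genes, 46 passed the filter on low counts, and Psma8, Psmb8, Psmb9 and Psmb11 did not.

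The proteasome is the protease that degrades proteins tagged with ubiquitin. Its core is a barrel of stacked rings, with outer alpha rings that gate the entry and inner beta rings that hold the proteolytic sites, and its cap binds ubiquitin, removes it and uses a ring of ATPases to unfold the substrate. In cells exposed to interferon, Psmb8, Psmb9 and Psmb10 can replace the catalytic subunits Psmb5, Psmb6 and Psmb7, which gives the immunoproteasome, and dividing cells with a high rate of protein synthesis are known to depend on proteasome activity.

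The libraries came from mPDAC cells, a mouse line of pancreatic ductal adenocarcinoma from FVB/N x C57BL6 mice, either non-treated (NT) or treated with 50 µM of N6L, a synthetic pseudopeptide that binds the nucleolar protein nucleolin, for 48 h. From each lysate, 1 library was prepared from the cytoplasm, cleared of nuclei and mitochondria, and 1 from the pooled polysomes of a sucrose gradient, that is, from mRNAs carrying several ribosomes. The 4 groups (NT cytoplasm, NT polysome, N6L cytoplasm and N6L polysome) held 3 cultures each, numbered 1, 2 and 4 for NT and 1, 2 and 3 for N6L, all of a single cell line. The questions were which mRNAs change in level under N6L and which change in their share on polysomes.

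The libraries held 19519911 to 44972333 counts. Of the marker lists examined, the 8 ductal epithelium genes summed to 6522 to 10746 CPM, that is, counts scaled to a common library size, most of it from Krt8, Krt18 and Krt19, with Epcam at 0.035 to 0.30 CPM, while the fibroblast, leukocyte and endothelium lists reached at most 1.22, 2.23 and 1.15 CPM. The acinar list summed to 27.6 to 82.8 CPM, nearly all of it from Cela1 (27.6 to 82.7 CPM). Cel was at most 0.041 CPM, and Cpa1, Pnlip and Amy2b were at 0 in all 12 libraries. Among the N6L polysome libraries, culture 3 stood apart from cultures 1 and 2 for many of the genes below, and NT culture 4 was often the highest NT library. As these are bulk samples, fewer cells that express a gene and less of its RNA per cell cannot be told apart, and every change is relative to the other mRNAs of the library.

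In the non-treated cytoplasm, the constitutive core subunits were expressed at unequal levels, although each is built into the particle in equal number. Levels between genes are given as TPM, that is, counts divided by the summed exon length of the gene and scaled to a common total. In the core, Psmb4 had the highest level, at 537 ± 42.3 TPM (SD, n = 3), and Psma3 the lowest of the constitutive subunits, at 63.3 ± 4.5 TPM. The catalytic Psmb6, which has the caspase-like activity, was at 433 ± 6.4 TPM, Psmb7, with the trypsin-like activity, at 166 ± 10.4 TPM, and Psmb5, with the chymotrypsin-like activity, at 125 ± 24.8 TPM. In that order these 3 were separated by more than their SDs.

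In the cap, the ATPase Psmc5 had the highest level, at 416 ± 8.8 TPM, and the ubiquitin receptor Psmd4 was at 295 ± 9.0 TPM. The scaffold subunit Psmd1 was at 33.7 ± 7.4 TPM, below the other scaffold subunit Psmd2 at 164 ± 14 TPM. Among the activators, Psme2 and Psme3 lay at 161 ± 3.8 and 158 ± 6.8 TPM, which did not differ beyond their spread, and Psme4, the large activator PA200, was at 17.9 ± 4.7 TPM. The core chaperones ranged from 39.3 ± 4.8 TPM for Psmg3 to 129 ± 32.2 TPM for Psmg4. Summed exon length counts every annotated exon, so a gene with many rarely used exons appears lower on this scale. The summed exons and the longest transcript have 1764 and 962 nt for Psme2 and 2949 and 2664 nt for Psme3. For Psmc5 both have 1394 nt, while Psmc3, at 328 TPM, has 2607 and 1819 nt. The standing of Psme2 beside Psme3, and of Psmc5 as the highest of the cap, thus depends on the length used.

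**Figure D1:**
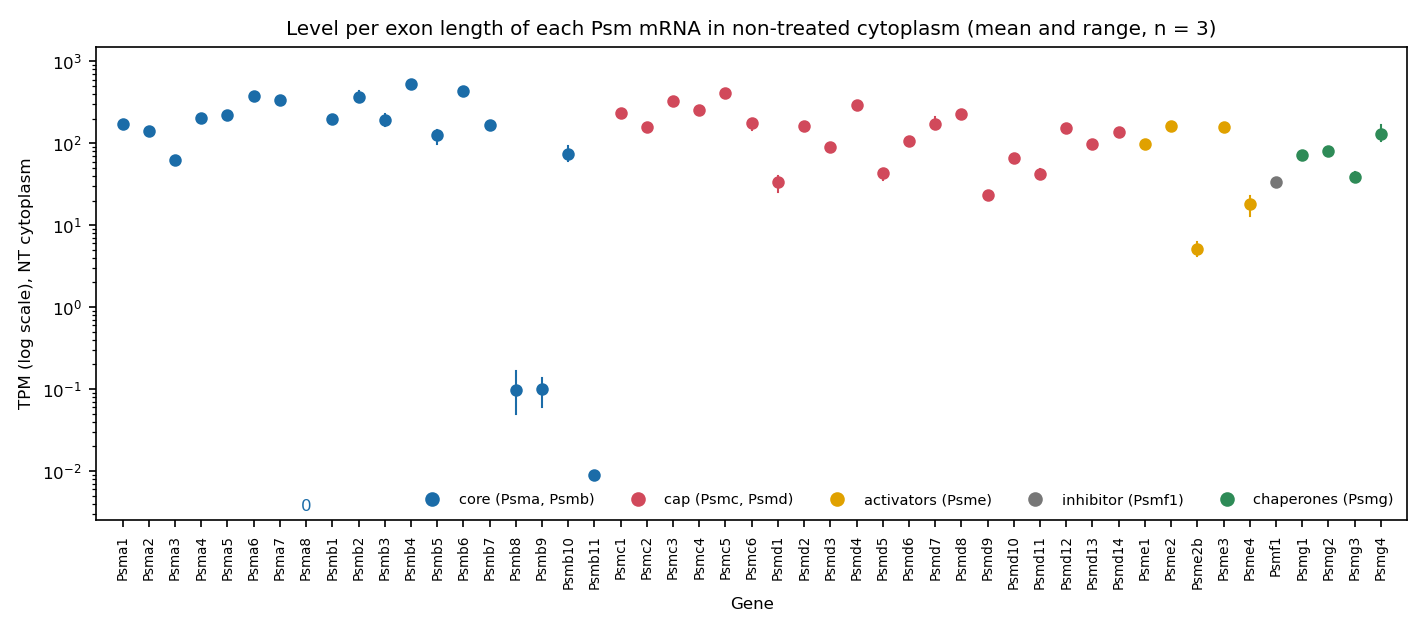
Level of each gene in the non-treated cytoplasm in TPM on a log axis, with points for the mean and bars for the range of 3 cultures, coloured by class. The constitutive core subunits lie between 63.3 and 537 TPM, whereas Psmb8 and Psmb9 lie near 0.1 TPM, Psmb11 lower still and Psma8 at 0.

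The tissue-restricted and interferon-induced core subunits were nearly absent. Psma8, the alpha subunit of the testis, had 0 counts in every library, which allows at most 3 counts per library. Psmb11, the catalytic subunit of the thymus, had at most 2 counts. Psmb8 had between 0 and 13 counts and Psmb9 between 2 and 11. Psmb10, the immunoproteasome counterpart of Psmb7, differed from them and was at 73.1 ± 16.3 TPM in the NT cytoplasm. The 4 annotated processed pseudogenes of Psmb5, Psmb6 and Psmb7 had at most 3 counts in any library.

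After N6L, many proteasome mRNAs were lower in the cytoplasm. Of the core, cap, activators and core chaperones, the chaperones (-0.99) and the core (-0.60) had the lowest median log2 changes. Within the cap, the 6 ATPases alone had a median of -0.63. By edgeR's quasi-likelihood test, with adjusted p under 0.05, 25 of the 46 genes fell and 0 rose, that is 54.3%, whereas 28.3% of the 13889 genes tested changed, 14.5% upward and 13.8% downward. The median log2 change was -0.53 over the 46 genes and 0.04 over all genes. Without N6L culture 2, 12 of the 46 fell and 9.24% of all genes were called, while the median change of the 25 was -0.78 in place of -0.75. Without NT culture 4, 21 fell and 15.5% of all genes were called, and Psma2, Psma6, Psmb4 and Psmb5 no longer passed. In 39 of the 46 the N6L cultures all lay below the NT cultures, and in 2, Psmd1 and Psme4, all above them, against 25.7% and 29.2% of all genes (54.9% in either direction). With library totals alone as the scaling, all genes shifted to a median of 0.19, with 2588 higher and 1363 lower calls in place of 2013 and 1922, and 22 of the 46 fell at a median of -0.38. Mitochondrial RNA made up 0.752% ± 0.266 (SD, n = 3) of the counts in the NT cytoplasm and 0.184% ± 0.060 in the N6L cytoplasm, and 3 nuclear RNAs summed to 97.3 ± 27.7 and 218 ± 18.1 CPM. Their part in the changes was not tested.

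**Figure D2:**
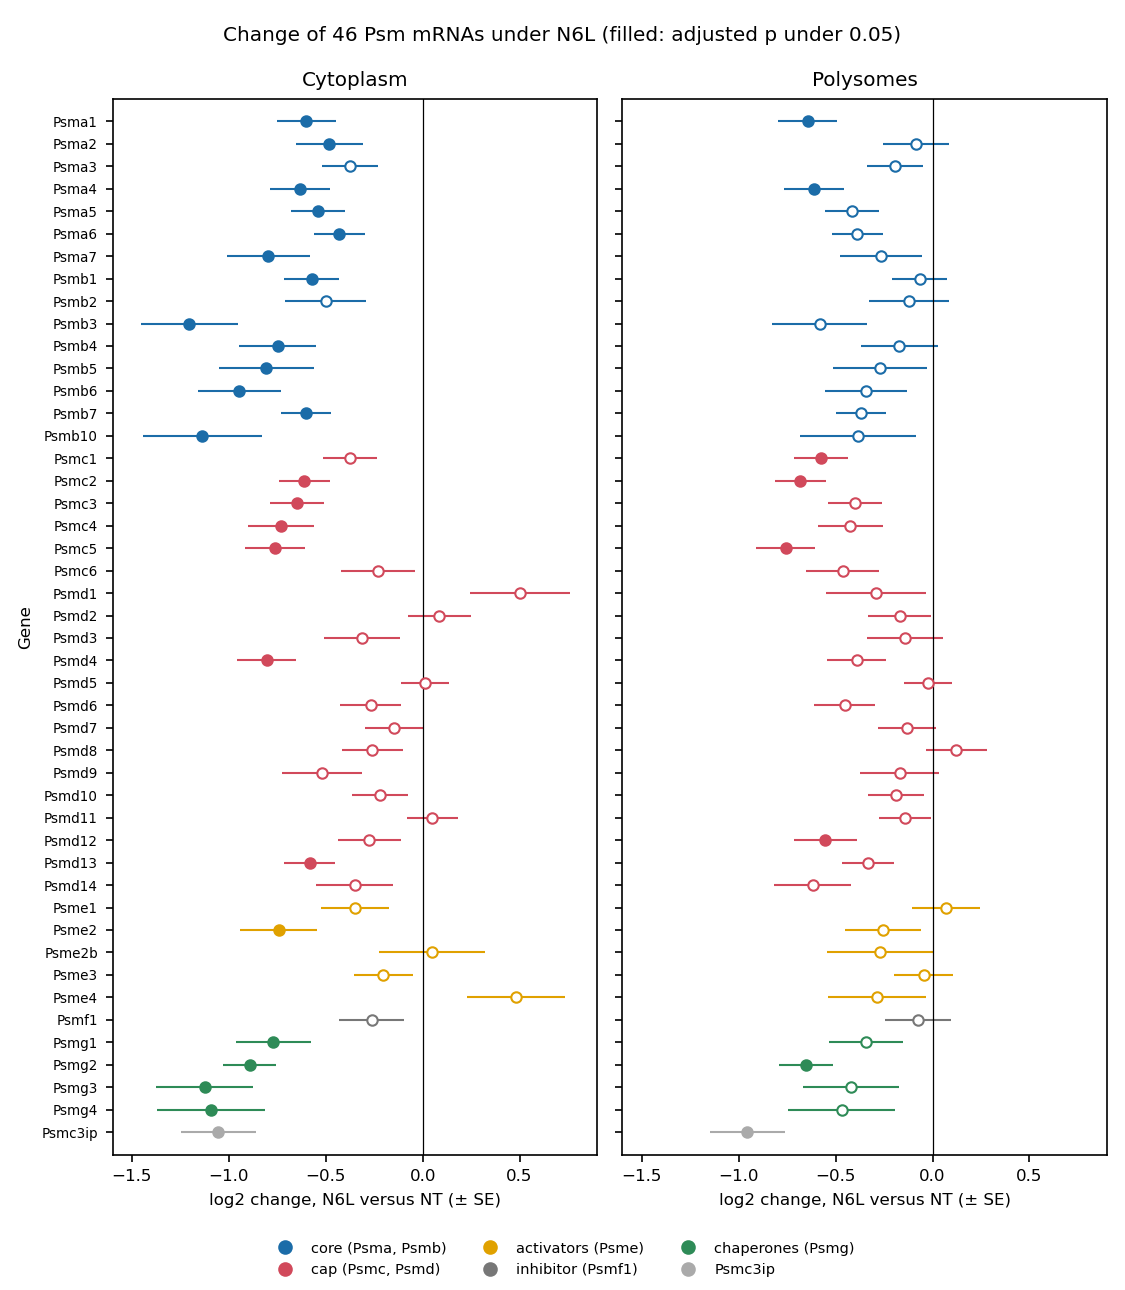
Fitted log2 change under N6L with its SE for the 46 tested genes, in the cytoplasm at left and in polysomes at right, coloured by class and filled where adjusted p is under 0.05. In the cytoplasm 25 points are filled, all below 0, and in polysomes 8.

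In the core, 13 of 15 tested genes fell, with a median log2 change of -0.60 and a range from -1.20 to -0.38. The beta ring had 7 of 8 lower (median -0.78) and the alpha ring 6 of 7 (median -0.54). The exceptions were Psmb2, at -0.50 ± 0.21 (SE, adjusted p = 0.085), and Psma3, at -0.38 ± 0.14 (adjusted p = 0.0625). Psmb3, a structural subunit of the beta ring, had the largest fall of all 46.

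In the cytoplasm, Psmb3 was at 155, 132 and 234 CPM in NT cultures 1, 2 and 4 and at 76.6, 73.0 and 76.7 CPM in N6L cultures 1, 2 and 3. The N6L cultures lay close together and below each NT culture, of which culture 4 was the highest. The log2 change was -1.20 ± 0.25 (adjusted p = 0.00484).

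The catalytic subunits all fell. Psmb6 was at 299, 282 and 368 CPM in the NT cytoplasm and at 159, 155 and 178 CPM after N6L. No N6L culture came near the NT range, and the log2 change was -0.95 ± 0.21 (adjusted p = 0.00719). For Psmb5 the values were 32.0, 42.1 and 58.8 CPM against 22.9, 25.3 and 27.7 CPM, a change of -0.81 ± 0.25 (adjusted p = 0.0269). The lowest NT culture and the highest N6L culture of Psmb5 were close but did not overlap. For Psmb7 they were 218, 205 and 238 CPM against 141, 146 and 149 CPM, a change of -0.60 ± 0.13 (adjusted p = 0.00574). Its exons share 405 bases with Nek6 on the opposite strand, and the strand setting of the counting is not given in the sources used here.

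Psmb10 was at 37.9, 40.5 and 70.3 CPM in the NT cytoplasm and at 20.9, 21.8 and 24.9 CPM after N6L. All N6L cultures were below all NT cultures, with NT culture 4 well above the other two. The log2 change was -1.14 ± 0.31 (adjusted p = 0.0154), and without N6L culture 2 the call was lost, at -1.15 (adjusted p = 0.068).

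**Figure D3:**
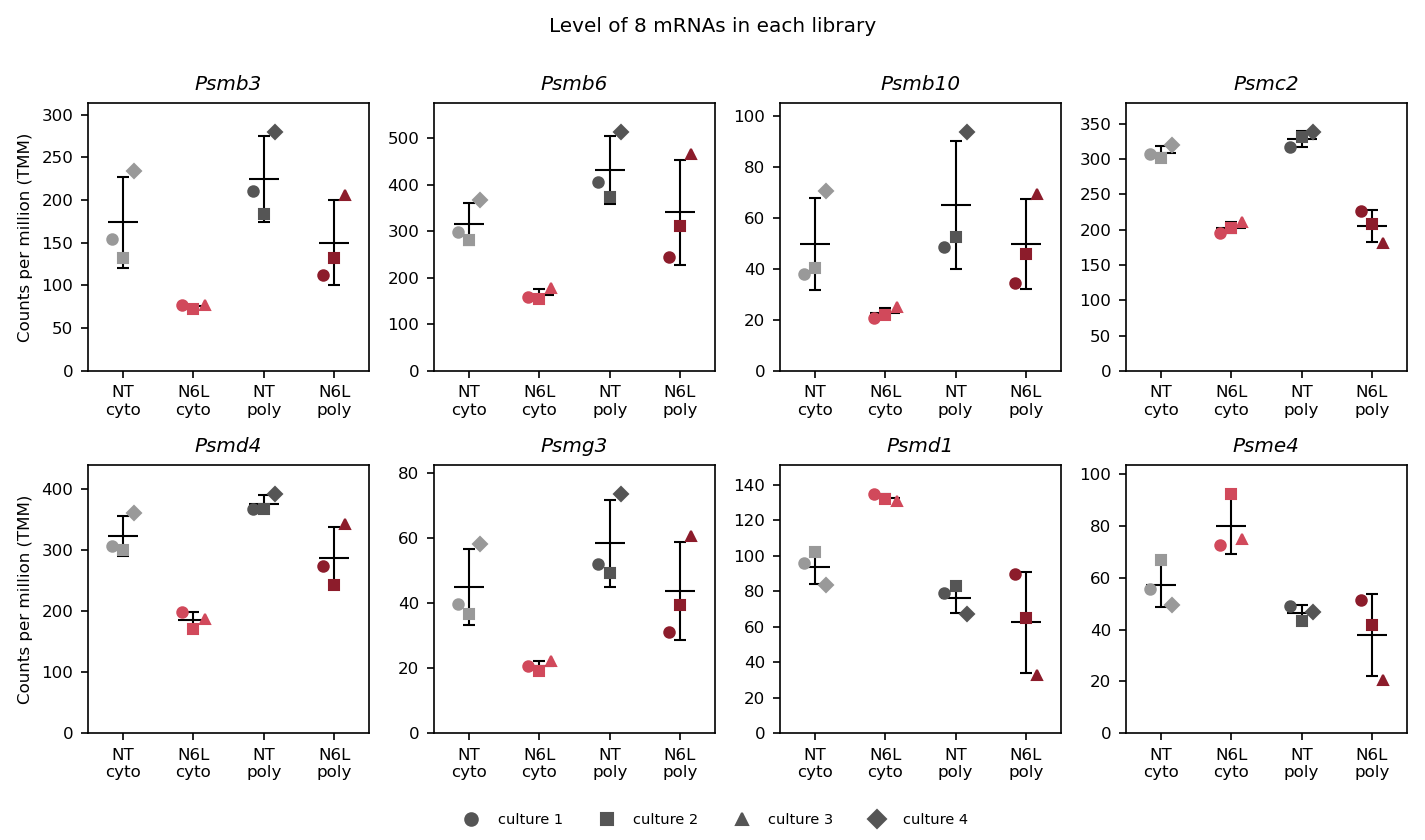
CPM of 8 mRNAs in each of the 12 libraries, with a symbol per culture number and black lines for the mean and SD of each group of 3. Psmb3, Psmb6, Psmb10, Psmc2, Psmd4 and Psmg3 fell in the cytoplasm, while Psmd1 and Psme4 were higher there in each N6L culture, and in N6L polysomes culture 3 was the highest for Psmb3, Psmb6, Psmb10, Psmd4 and Psmg3 and the lowest for Psmc2, Psmd1 and Psme4.

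In the cap, 6 of 20 genes fell, with a median of -0.29. Of these, 4 were among the 6 ATPases of the base, which turn ATP hydrolysis into unfolding: Psmc2, Psmc3, Psmc4 and Psmc5, at -0.61 to -0.76, whereas Psmc1 was at -0.38 ± 0.14 (adjusted p = 0.0564) and Psmc6 at -0.23 ± 0.19 (adjusted p = 0.369). The median of the 6 ATPases was -0.63, against -0.26 for the 14 Psmd genes, of which only Psmd4 and Psmd13 fell. The difference between core and cap was not tested, and the classes are described side by side.

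Psmd4, a receptor for ubiquitin chains, was at 307, 299.7 and 359.8 CPM in the NT cytoplasm and at 198, 169 and 186 CPM after N6L. The N6L values did not reach the NT range, and the change was -0.80 ± 0.15 (adjusted p = 0.00334). Psmd14, the deubiquitinase of the lid, had 134, 151 and 164 CPM against 112, 123 and 117 CPM, a change of -0.35 ± 0.20 that did not pass the test (adjusted p = 0.187). Psmd2 had 247, 251 and 269.7 CPM against 298, 251 and 265 CPM, with overlapping groups and a change of 0.08 ± 0.16 (adjusted p = 0.717). The chaperones of the base, Psmd5, Psmd9 and Psmd10, were at 0.01, -0.52 and -0.22 and none passed the test.

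Psmd1 went the other way in level. It was at 96.1, 102 and 83.2 CPM in the NT cytoplasm and at 135, 132 and 131 CPM after N6L. The groups did not overlap, but the change of 0.50 ± 0.26 did not pass the test in the fit of all 4 groups (adjusted p = 0.152). It passed when only the cytoplasmic libraries were fitted (0.46, adjusted p = 0.011), with no filter on low counts (0.54, adjusted p = 0.0351) and without N6L culture 3 (0.51, adjusted p = 0.04).

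The 4 chaperones of the core, which pair up to build the alpha ring before the beta subunits join, all fell in the cytoplasm, with a median of -0.99. Psmg3 was at 39.8, 36.5 and 58.2 CPM in NT and at 20.5, 18.9 and 22.3 CPM after N6L, a change of -1.12 ± 0.25 (adjusted p = 0.00669). Psmg4 was at 21.6, 22.7 and 41.5 CPM against 13.2, 13.5 and 13.4 CPM, a change of -1.09 ± 0.28 (adjusted p = 0.0127). In both genes NT culture 4 was the highest and the N6L cultures were nearly equal. Psmg2 fell by 0.89 ± 0.14 (adjusted p = 0.00155) and Psmg1 by 0.77 ± 0.19 (adjusted p = 0.0113).

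Of the activators, only Psme2 fell. This subunit of PA28, the interferon-induced cap that opens the core without ATP, was at 104, 98.1 and 131 CPM in the NT cytoplasm and at 65.4, 63.3 and 70.3 CPM after N6L, without overlap, a change of -0.74 ± 0.20 (adjusted p = 0.015). Its partner Psme1 was at -0.35 ± 0.18 (adjusted p = 0.144), and the nuclear activator Psme3 at -0.20 ± 0.15 (adjusted p = 0.326). Psme4 was at 55.7, 66.8 and 49.5 CPM in NT and at 72.7, 92.5 and 75.0 CPM after N6L. Each N6L culture was above each NT culture, and the change of 0.48 ± 0.25 did not pass the test (adjusted p = 0.158). It passed when only the cytoplasmic libraries were fitted (0.44, adjusted p = 0.0306), with no filter on low counts (0.53, adjusted p = 0.0499) without N6L culture 3 (0.53, adjusted p = 0.0368) and with the replicate number as a block (0.66, adjusted p = 0.0454), and was at -0.01 with an offset for transcript length and GC content. Psme2b, a retrogene copy of Psme2 with 32 to 86 counts per library, and the inhibitor Psmf1 were at 0.05 and -0.26 and did not pass the test either. Reads of Psme2b and Psme2 may not have been told apart. Exons of Psmc3, Psmd13 and Psmc3ip share 215, 342 and 385 bases with Slc39a13, Sirt3 and Mlx on the opposite strand, so their counts carry the same doubt as those of Psmb7. Psmc3ip, which is no proteasome subunit, fell by 1.05 ± 0.19 (adjusted p = 0.00281).

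The start regions of 3 of these genes are shown because they bracket the range of the cytoplasmic changes: Psmb3 with the largest fall, the catalytic Psmb6, and Psmd1 with the highest change. The sequences are those of RefSeq on GRCm38.p6, 250 bases before to 50 after the start, each on the plus strand: chr11:97703184-97703483 for Psmb3, chr11:70525107-70525406 for Psmb6 and chr1:86064369-86064668 for Psmd1. Capitals mark every match, on either strand, to 3 motifs. These were TGACNNNGC (the core of the antioxidant response element, bound by the Nfe2l1 and Nfe2l2 factors that drive proteasome genes), CCAAT (the CCAAT box) and the core of the interferon-stimulated response element (GAAA, any 2 bases, GAAA). No motif letters overlapped between matches in these 3 sequences.
Psmb3: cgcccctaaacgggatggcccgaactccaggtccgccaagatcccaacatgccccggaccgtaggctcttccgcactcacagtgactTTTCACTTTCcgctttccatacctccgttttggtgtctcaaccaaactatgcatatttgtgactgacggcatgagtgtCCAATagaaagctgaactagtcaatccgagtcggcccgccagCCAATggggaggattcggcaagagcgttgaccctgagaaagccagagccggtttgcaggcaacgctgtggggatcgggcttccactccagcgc
Psmb6: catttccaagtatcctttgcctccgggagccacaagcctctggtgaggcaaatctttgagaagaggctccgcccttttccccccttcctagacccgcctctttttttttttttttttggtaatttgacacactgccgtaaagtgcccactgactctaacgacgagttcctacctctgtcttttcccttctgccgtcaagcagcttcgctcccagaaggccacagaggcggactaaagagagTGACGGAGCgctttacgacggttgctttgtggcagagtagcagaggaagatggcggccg
Psmd1: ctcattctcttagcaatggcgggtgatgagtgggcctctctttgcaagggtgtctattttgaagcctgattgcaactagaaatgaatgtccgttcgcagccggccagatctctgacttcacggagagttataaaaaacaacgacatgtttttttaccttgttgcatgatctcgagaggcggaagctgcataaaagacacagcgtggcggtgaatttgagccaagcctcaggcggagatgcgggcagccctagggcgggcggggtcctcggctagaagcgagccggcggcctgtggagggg
Psmb3 had 2 CCAAT boxes and 1 match to the interferon element on the minus strand, Psmb6 had 1 match to the antioxidant element and Psmd1 had no match to any of the 3.

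Of the 49 genes without Psmc3ip, 41 had a promoter entry, and Psma8, Psmb1, Psmb2, Psmb7, Psmc3, Psmd3, Psmd7 and Psmg2 had none. The antioxidant element was found in 6 of the 41 (14.6%; Psmb5, Psmb6, Psmc6, Psmd9, Psmd12 and Psme4), against 13.99% of 27025 genes with an entry. The CCAAT box was found in 14 of the 41 (34.1%), against 41.1% of those genes. The interferon core was found in 5 of the 41 (12.2%; Psmb3, Psmd4, Psmd9, Psme1 and Psmg4), against 3.99% of those genes. Of the 20 genes with an entry that fell in the cytoplasm, 2 held the antioxidant element, 7 the CCAAT box and 3 the interferon core. A match is a stretch of letters and no measured binding site.

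In polysomes fewer proteasome mRNAs changed. By the same test 8 of the 46 fell and 0 rose, that is 17.4%, against 9.67% of all genes (6.01% higher and 3.66% lower), and the median log2 change was -0.34 against 0.00 over all genes. The genes that fell were the alpha subunits Psma1 and Psma4, the ATPases Psmc1, Psmc2 and Psmc5, the lid subunit Psmd12, the chaperone Psmg2 and Psmc3ip. None of the 8 tested beta subunits passed the test, and their median was -0.31. The N6L cultures all lay below the NT cultures for 19 genes and all above for 0, against 12% and 13.7% of all genes (25.6% in either direction).

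Psmc5 was at 216, 245 and 282 CPM in NT polysomes and at 152, 132 and 155 CPM in N6L polysomes, a change of -0.76 ± 0.15 (adjusted p = 0.00959). Psmc2 was at 317, 331 and 339 CPM against 226, 208 and 181 CPM, a change of -0.68 ± 0.13 (adjusted p = 0.00731). In both ATPases the N6L cultures were clearly below the NT cultures, as they were in the cytoplasm. Psmg2 was at 61.9, 56.0 and 58.6 CPM against 42.0, 35.3 and 35.0 CPM, a change of -0.65 ± 0.14 (adjusted p = 0.012). Psma1 fell by 0.64 ± 0.15 (adjusted p = 0.0199), Psma4 by 0.61 ± 0.16 (adjusted p = 0.0272), Psmc1 by 0.58 ± 0.14 (adjusted p = 0.0219) and Psmd12 by 0.55 ± 0.16 (adjusted p = 0.0461).

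For each tested beta subunit but Psmb7 the polysome groups overlapped. Psmb3 was at 211, 183 and 280.1 CPM in NT polysomes and at 112, 132 and 206 CPM in N6L polysomes, a change of -0.58 ± 0.25 (adjusted p = 0.148). Psmb6 was at 407, 374 and 515 CPM against 246, 311 and 466 CPM, a change of -0.34 ± 0.21 (adjusted p = 0.327). In both, N6L culture 3 reached into the NT range while cultures 1 and 2 lay below it. By edgeR, 0 genes passed without N6L culture 2, with 1.04% of all genes called. In that fit 13 of the 46 had an unadjusted p under 0.05, against 2455 of 14019 genes. The median change of the 8 called genes was then -0.67 in place of -0.65. Without NT culture 1 Psmc5 alone passed, with 1.44% of all genes called, and without NT culture 4 only Psmc2, Psmc5, Psmg2 and Psmc3ip did, with 4.44%. Without N6L culture 3, Psma1, Psma4, Psmc1 and Psmd12 no longer passed, while Psmb3 (-0.88, adjusted p = 0.0447) and Psmd4 (-0.54, adjusted p = 0.0471) did. In that fit 7.77% of all genes were called. Without N6L culture 1, with 11.2% of all genes called, 10 fell and 2 were called higher, Psmb8 (2.28) and Psmb9 (1.82). Both had failed the filter on low counts with all 12 libraries and rest on at most 13 and 11 counts a library. In this fit they passed the filter only through N6L polysome cultures 2 and 3, the group tested, so these 2 calls cannot show a rise. With no filter and all libraries, Psmb8 was at 1.90 (adjusted p = 0.067) and Psmb9 at 1.33 (adjusted p = 0.306). With only the polysome libraries in the fit 0 passed, with 2.46% of all genes called. In that fit 11 of the 46 had an unadjusted p under 0.05, against 2610 of 13351 genes. DESeq2 called 15, with 7.74% of all genes called.

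Between the fractions of non-treated cells, no proteasome mRNA passed the edgeR test for its polysome-to-cytoplasm ratio. Of the 46, 7 had an unadjusted p under 0.05, against 1855 of the 13889 genes, and 0.209% of all genes were called. DESeq2 also called 0, with 13 of 49 at an unadjusted p under 0.05, against 2092 of 25915 genes. The fitted log2 ratio was above 0 for 40 of the 46, with a median of 0.23 against 0.03 over all genes. With fractions of a lysate paired by a culture block, 0 passed, with 1.46% of all genes called. In that fit 21 of the 46 had an unadjusted p under 0.05, against 3424 of the 13889 genes. With that block and an offset for transcript length and GC content, Psma2, Psma3, Psmb7, Psmc2, Psmd5 and Psmd11 passed, 6 higher and 0 lower, with 4.70% of all genes called.

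In N6L-treated cells, 24 of the 46 mRNAs had a higher and 2 a lower share in polysomes than in the cytoplasm, 52.2% and 4.35%, against 18.4% and 20.6% of all genes (39.0% called in all). The median log2 ratio was 0.49 against 0.03 over all genes. All 8 tested beta subunits were higher, at 0.52 to 1.14 (median 1.00), as were 3 of 7 alpha subunits (Psma2, Psma5 and Psma7), 7 of 20 cap genes, Psme1, Psme2, Psmg1, Psmg3, Psmg4 and Psmc3ip. The 2 lower genes were Psmd1 and Psme4. Polysome values all lay above cytoplasm values for 31 genes and all below for 2, against 28.6% and 28.4% of all genes (57% in either direction). The N6L cytoplasm libraries enter this ratio and the cytoplasmic comparison alike, so the values of both do not stand apart from each other.

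Psmb4, a structural beta subunit, was at 228, 241 and 262 CPM in the N6L cytoplasm and at 365, 463 and 637 CPM in the polysomes of the same cultures. In each culture the polysome value was the higher, most of all in culture 3, and the log2 ratio was 1.00 ± 0.20 (adjusted p = 0.00493). The corresponding ratios were 1.05 ± 0.21 for Psmb6 (adjusted p = 0.00507), 1.05 ± 0.25 for Psmb5 (adjusted p = 0.00735) and 1.14 ± 0.31 for Psmb10 (adjusted p = 0.0118). The call for Psmb10 was lost without culture 2 (1.20, adjusted p = 0.0632) or culture 3 (0.91, adjusted p = 0.0885).

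Psmd1 was at 135, 132 and 131 CPM in the N6L cytoplasm and at 89.9, 64.7 and 32.7 CPM in N6L polysomes, a log2 ratio of -1.09 ± 0.26 (adjusted p = 0.00764). Psme4 was at 72.7, 92.5 and 75.0 CPM against 51.3, 41.8 and 20.5 CPM, a log2 ratio of -1.08 ± 0.25 (adjusted p = 0.00742). In both, each culture was lower in polysomes and culture 3 was the lowest. Without culture 3 the ratios were -0.79 (adjusted p = 0.0239) and -0.83 (adjusted p = 0.0214), and without culture 2 neither passed, at -1.10 (adjusted p = 0.0559) and -1.02 (adjusted p = 0.059). Over the 46 genes, 6 were higher and 0 lower without N6L culture 2, with 8.22% of all genes called, and 6 higher and 2 lower without N6L culture 3, with 11.7%. The median ratio of the 26 called genes was 0.71 with all cultures, 0.76 without culture 2 and 0.57 without culture 3. With culture as a block, for which fractions of a lysate were paired, 29 were higher and 2 lower, with 53.7% of all genes called.

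**Figure D4:**
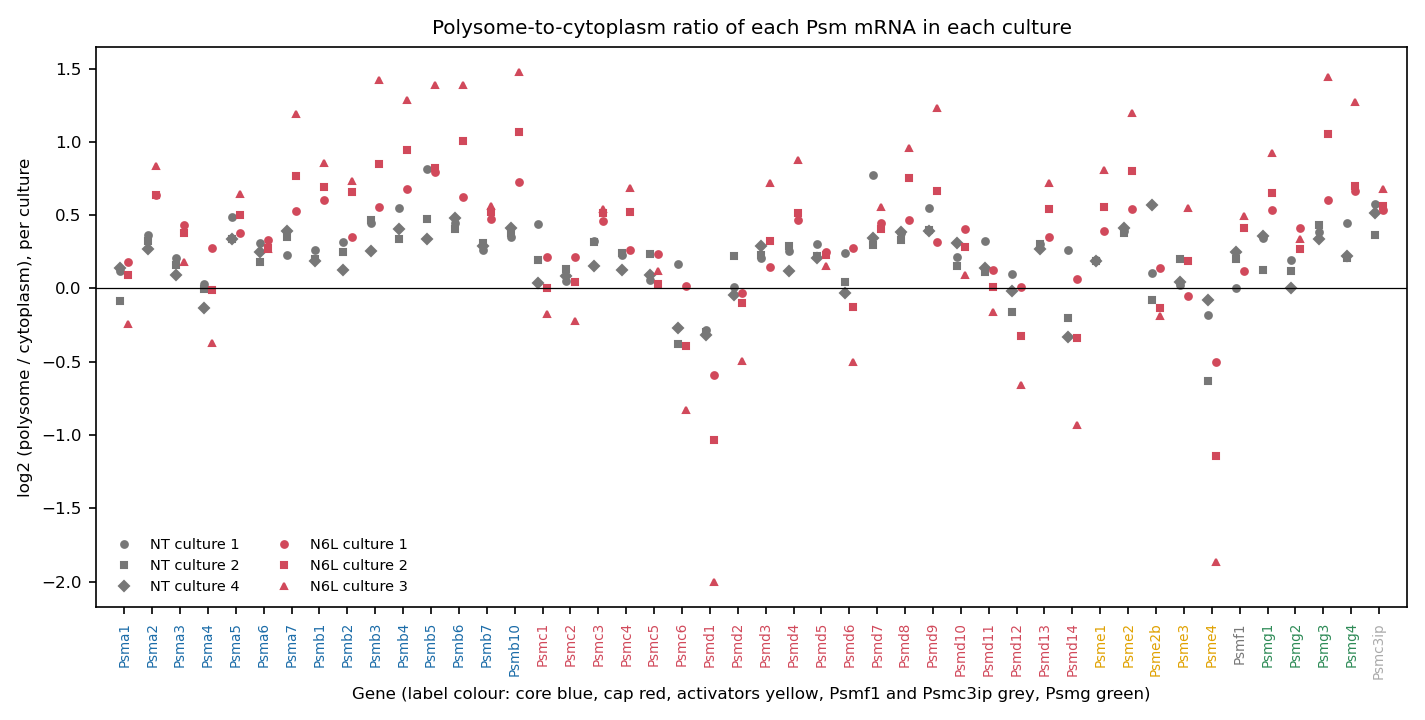
Log2 ratio of polysome to cytoplasm for the 46 genes in each NT culture (grey) and N6L culture (red), with a symbol per culture number. In N6L culture 3 the ratio reaches 1.47 for Psmb10 and -2.0 for Psmd1, while the NT cultures lie between -0.63 and 0.82.

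The change of this ratio, the translational index, compares polysome loading between N6L and NT cells. By edgeR, 0 of the 46 genes and 0.0% of all genes passed the test, and 3 of the 46 had an unadjusted p under 0.05, which were Psmb1, Psmd1 and Psme4, against 1074 of the 13889 genes. DESeq2 called 0 of them as well, with 3 at an unadjusted p under 0.05, against 1286 of 25915 genes. These fits did not pair the fractions of a lysate. With a culture block in edgeR, 0 passed and 17 of the 46 had an unadjusted p under 0.05, against 2996 of all genes. The log2 index was above 0 for 33 of the 46, with a median of 0.18 against 0.01 over all genes. The medians were 0.40 for the core, 0.56 for its beta ring alone, -0.01 for the cap, 0.16 for the activators and 0.53 for the core chaperones. As the index is the polysome change minus the cytoplasmic change, it does not stand apart from either. In the same order, the median polysome changes were -0.34, -0.31, -0.36, -0.26 and -0.44.

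For Psmb1, the log2 ratio of polysome to cytoplasm was 0.26, 0.20 and 0.19 in NT cultures 1, 2 and 4 and 0.60, 0.69 and 0.86 in N6L cultures 1, 2 and 3. The groups did not overlap, and the index was 0.51 ± 0.20 (adjusted p = 0.555). For Psmd1 the ratio was -0.28, -0.30 and -0.32 in NT and -0.59, -1.03 and -2.0 in N6L, without overlap, an index of -0.79 ± 0.36 (adjusted p = 0.555). For Psme4 it was -0.18, -0.63 and -0.08 against -0.50, -1.14 and -1.87, with overlap, an index of -0.77 ± 0.36 (adjusted p = 0.555). The per-culture ratios of N6L lay all above those of NT for 20 of the 46 genes and all below for 1, Psmd1, against 15.3% and 14.4% of all genes (29.7% in either direction).

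Transcript length moved with these changes, for proteasome mRNAs and for other genes. In the N6L cytoplasm, mRNAs under 1500 nt had a median deviation of -0.44 ± 0.04 (SD, n = 3) from the mean of all libraries and those over 3000 nt one of 0.27 ± 0.02. In the cytoplasmic comparison, the 17 proteasome mRNAs under 1500 nt had a median change of -0.74 against -0.52 for all such genes. The 22 of 1500 to 3000 nt had a median of -0.43 against -0.14, and the 6 over 3000 nt one of 0.05 against 0.27. Thus in each length class the proteasome median was below that of all genes. Across the 45 genes other than Psmc3ip, Pearson's r of cytoplasmic change with the log of the length was 0.54, against 0.43 across all genes. Genes are not independent replicates, and they share the same libraries.

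**Figure D5:**
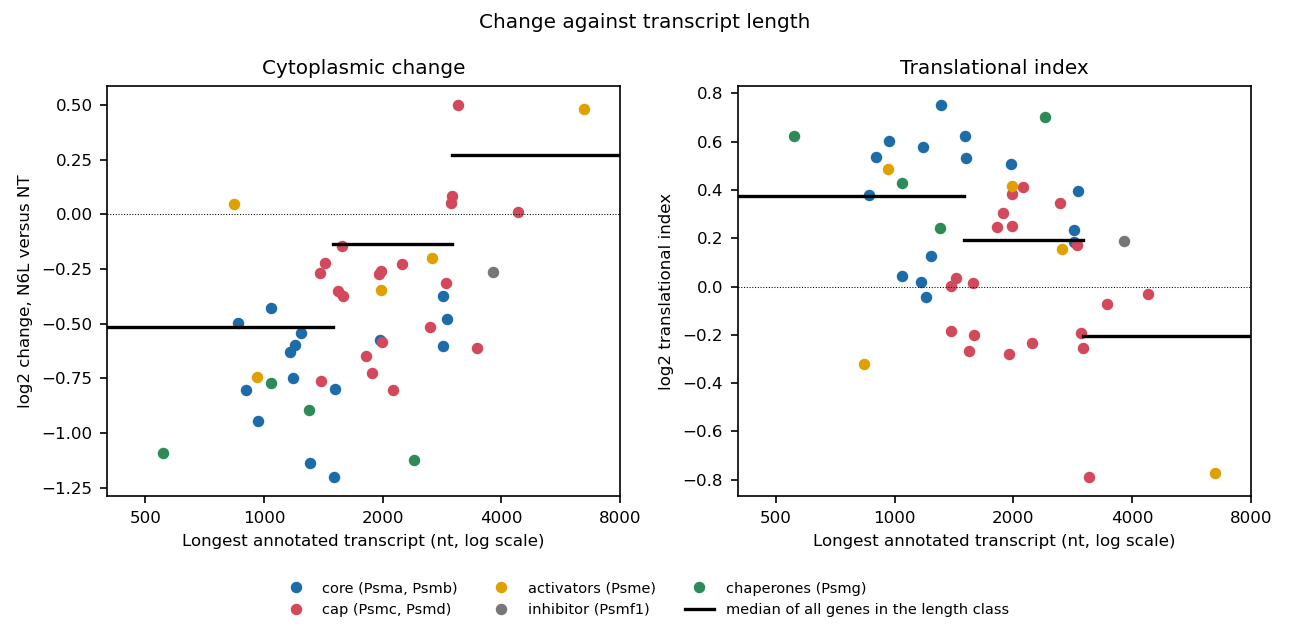
Fitted log2 change in the cytoplasm (left) and log2 translational index (right) of the 45 genes other than Psmc3ip against the length of the longest annotated transcript on a log axis, with black lines for the median of all genes under 1500, from 1500 to 3000 and over 3000 nt. In the cytoplasm the members' medians of -0.74, -0.43 and 0.05 lie below the lines, and for the index they lie at 0.24, 0.25 and -0.16.

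For the translational index the medians were 0.24 against 0.37 for all genes under 1500 nt, 0.25 against 0.19 from 1500 to 3000 nt and -0.16 against -0.21 over 3000 nt. With an offset for transcript length and GC content in each library, 24 of the 46 genes fell in the cytoplasm at a median of -0.37, 22 of them among the 25 called without it, while 30.4% of all genes were called at a median of -0.04. In the N6L ratio of polysome to cytoplasm the same offset left 13 higher and 3 lower at a median of 0.17, 10 of them among the 26 called without it, while 20% of all genes were called at a median of 0.02. Psmd1 kept its call under the offset, at -0.98 (adjusted p = 0.00822), and Psme4 did not, at -0.27 (adjusted p = 0.153). What part of each change length carries was not tested.

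The ratio of cap to core mRNA was described per library, without a test. The summed TPM of the cap divided by that of the core was 0.899, 0.959 and 0.823 in NT cultures 1, 2 and 4 and 1.09, 1.04 and 1.04 in N6L cultures 1, 2 and 3, without overlap. In polysomes it was 0.835, 0.888 and 0.724 in NT and 0.920, 0.759 and 0.660 in N6L, and the groups overlapped. The ratio does not depend on how libraries are scaled to one another, but it was not corrected for the shift by transcript length. The median deviation of the shortest length class minus that of the longest was -0.14, -0.14 and 0.42 in the NT cytoplasm. In the N6L cytoplasm it was -0.77, -0.72 and -0.66, also without overlap. In polysomes it was 0.30, 0.22 and 0.76 in NT and -0.06, 0.12 and 0.70 in N6L, with overlap. What part of the ratio length carries was not tested.

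The share of immunoproteasome subunits in each catalytic pair was compared by an exact permutation test over cultures, two-sided, where 3 against 3 allows no p below 0.1. In TPM, Psmb10 made up 25.9%, 28.3% and 37.3% of its sum with Psmb7 in the NT cytoplasm and 22.9%, 23.1% and 25.1% in the N6L cytoplasm. The groups did not overlap, and the means differed by -6.80 percentage points (exact permutation p = 0.1, adjusted over 6 shares p = 0.2). Without NT culture 4 the difference was -3.41 percentage points. In polysomes the share was 31.9% ± 6.53 in NT and 31.8% ± 6.31 in N6L (SD, n = 3, exact permutation p = 1). Psmb8 and Psmb9 made up at most 0.268% and 0.0648% of their pairs in any library, from at most 13 counts. The groups of Psmb9 in the cytoplasm did not overlap, at a mean of 0.0233% in NT and 0.0584% in N6L, nor did those of Psmb8 in polysomes, at 0.0443% and 0.190% (exact permutation p = 0.1 and adjusted p = 0.2 in both, n = 3 a group).

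Other genes of the system were looked at by lists. Of 13 proteasome-associated genes, 12 were tested and Paaf1 was not analysed here. In the cytoplasm 4 of the 12 fell (33.3%) and 0 rose (median -0.22), against 13.8% and 14.5% of all genes. Sem1, a small subunit of the lid, fell by 0.99 ± 0.23 (adjusted p = 0.00806), Pomp, which helps the core mature, by 0.78 ± 0.25 (adjusted p = 0.0347), and Adrm1, a ubiquitin receptor of the cap, by 0.54 ± 0.17 (adjusted p = 0.0323). The fourth was Txnl1. The deubiquitinases of the cap, Uchl5 and Usp14, were at -0.51 ± 0.19 (adjusted p = 0.062) and -0.04 ± 0.24 (adjusted p = 0.916). In polysomes Uchl5 alone fell, by 0.79 ± 0.19 (adjusted p = 0.024), which is 8.33% of the 12, against 9.67% of all genes called.

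In the N6L ratio of polysome to cytoplasm, Sem1 (0.93), Pomp (0.82), Fbxo7 (0.51) and Adrm1 (0.47) were higher and Ecpas (-1.22), Usp14 (-0.93) and Uchl5 (-0.59) lower. Of the 12 genes tested in this list these are 33.3% and 25%, against 18.4% and 20.6% of all genes. Of the 15 genes of ubiquitin and its delivery, only Rps27a, which encodes ubiquitin fused to a ribosomal protein, fell in the cytoplasm, by 0.68 ± 0.18 (adjusted p = 0.0133), and the median was 0.04. In polysomes 0 of the 15 passed the edgeR test, with 7 at an unadjusted p under 0.05, against 3684 of the 13889 genes.

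Of 8 regulators of proteasome transcription, Nfe2l2, the factor of the antioxidant response, rose in the cytoplasm, by 0.60 ± 0.18 on the log2 scale (adjusted p = 0.0269), and the median was 0.45. It was at 324, 372 and 313 CPM in NT and at 484, 521 and 522 CPM after N6L, without overlap. Nfe2l1, which restores proteasome levels when the protease is inhibited, was at 242, 264 and 157 CPM against 297, 275 and 283 CPM, without overlap, a change of 0.37 ± 0.22 that did not pass the test (adjusted p = 0.207). Of 12 antigen-processing genes, Irf1, an interferon-response factor, rose by 1.43 ± 0.17 on the log2 scale (adjusted p = 0.000493) and H2-D1, a class I heavy chain, fell by 0.63 ± 0.16 (adjusted p = 0.0111) in the cytoplasm, with a median of 0.14. In polysomes the only calls in these lists were Maff, a partner of the Nfe2l factors, which rose by 0.94 ± 0.21 (adjusted p = 0.0152), and Irf1, which rose by 1.47 ± 0.17 (adjusted p = 0.00063). The N6L ratio of polysome to cytoplasm was called higher for 3 and lower for 2 of the ubiquitin genes, and for 1 each way in the regulators and in antigen processing. Calls in that ratio thus made up 33.3%, 25% and 16.7% of these lists, against 39.0% of all genes. In the cytoplasm the shares were 6.67%, 12.5% and 16.7%, against 28.3%, and in polysomes 0%, 12.5% and 8.33%, against 9.67%. For the translational index edgeR called 0 genes in any of the 4 lists and 0.0% of all genes. At an unadjusted p under 0.05 were 1, 0, 0 and 2 in the order given, against 1074 of the 13889 genes.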

How the data were processed

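RNA from the cytoplasm and the polysomes of 6 mPDAC cultures was selected for poly(A), prepared with a stranded kit and sequenced in 4 technical replicates per library. The authors demultiplexed with bcl2fastq 2.18.0.12, aligned to mm10 with STAR 2.5.2b and deposited HTSeq-count 0.5.3 read counts per Ensembl gene. For the annotation, the strand setting and reads mapped to several places, the sources used here say nothing. Each deposited count file was read whole, and the 4 technical replicates were summed, since their chi-square divided by its degrees of freedom was 1.02 to 1.04. For N6L cytoplasm culture 2, 3 technical replicates carry conflicting labels and were left out in an alternative. Genes were matched to GENCODE vM21 (50376 of 50600), and promoters to RefSeq.

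In R 4.3.3 with edgeR 4.0.16, filterByExpr left 13889 genes, TMM factors set the library sizes, and a quasi-likelihood model was fitted (1 mean for each of 4 groups, Benjamini-Hochberg adjustment over all genes, limit 0.05). CPM are TMM-scaled. TPM use the summed exon length. Per-culture log2 ratios use a prior count of 2. Cytoplasm and polysomes of a culture come from one lysate (correlation of their deviations from the group means 0.0368 to 0.645 over the 6 cultures). The main fit took them as independent, and an alternative paired them with the culture as a block. The p-values of the main fit rest on the spread between libraries within groups, pooled over the 4 groups. For the ratios and the index they do not measure the spread of the per-culture ratios. DESeq2 1.42.0, other scalings and filters, a length and GC offset and leave-one-out fits were alternatives. The script was tested on simulated data. Full statistics were given for the catalytic subunits and their immunoproteasome counterparts, the ubiquitin receptors, deubiquitinase, activators, inhibitor and chaperones, and for the 3 largest changes each way past the limit. Other members are given where a count or class turns on them. Txnl1 and Fbxo7 were named after their values were seen. The members and lists were chosen with earlier results of these data known. The bound of at most 3 counts for a gene at 0 covers counting error only. Each SE comes from the quasi-likelihood fit and includes the spread between libraries, and each SD is between cultures.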

Additional observations from a re-analysis of the deposited data

How the results depend on the processing

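The counts of genes past the limit moved with single cultures and, in both fractions and both ratios, with the model. In the cytoplasm, the lowest and highest counts over the fits that left out 1 culture were 12 (without N6L culture 2) and 27 (25 lower and 2 higher), against 25. The shares of all genes called were 9.24% and 28.7%, against 28.3%. In polysomes the lowest and highest counts were 0 and 12 (10 lower and 2 higher; 11.2% of all genes), against 8. The 2 higher were Psmb8 and Psmb9, which passed the filter only through the group where they are high. Counts were 0, 1 and 4 when N6L culture 2, NT culture 1 or NT culture 4 was dropped, with 1.04%, 1.44% and 4.44% of all genes called. For the N6L ratio of polysome to cytoplasm the lowest and highest counts were 6 and 27, against 26, with 8.22% and 41.8% of all genes called. The 6 came when N6L culture 2 was dropped, and dropping culture 3 gave 8, with 11.7%. Leaving out 1 culture gave 0 for the NT ratio and for the translational index. The polysome median of -0.34 was -0.16 without NT culture 4. Among the other settings, the cytoplasm gave 33 (31 lower and 2 higher) with only the groups compared in the fit, with 42.2% of all genes called. Polysomes gave 15 with DESeq2, 15 with the length and GC offset and 0 with only the groups compared in the fit. The shares of all genes called were 7.74%, 20.1% and 2.46%, against 9.67% in the main fit. The N6L ratio gave 16 with the offset, with 20% of all genes called, against 39.0%. With culture as a replicate block, the paired fit gave 31 genes for the N6L ratio (53.7% of all genes) and 0 for the NT ratio (1.46%) and the index (0%). For the NT ratio and the index, 21 and 17 had an unadjusted p under 0.05, against 3424 and 2996 of the 13889 genes. With the offset added the paired fit gave 25 (19 higher and 6 lower), 6 and 0, with 36.1%, 4.70% and 0% of all genes called. The replicate number of the labels as a block gave 26 in the cytoplasm and 6 in polysomes, with 34.1% and 9.76% of all genes called. Cultures of NT and N6L share only that number, with correlations of 0.00756 to 0.296. The difference in the polysome share of Psmb10 with Psmb7 of -0.11 percentage points ranged from -3.54 to 3.60 over these fits, and turned positive when NT culture 4 (3.60), N6L culture 1 (2.67) or N6L culture 2 (0.54) was dropped. The cause of these changes was not tested.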
